A study of Mus musculus with 9 samples.

Results

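The sodium and calcium channel genes of the heart analysed here were Scn4b, Scn4a, Cacna1c, Cacnb2, Cacna2d1, Cacna1g, Cacna1h and the exchanger gene Slc8a1. They were taken by symbol from a table of 13795 genes, in which all 8 were found and all 8 passed the filter on low values that 13788 genes passed. The hearts came from C57BL/6 mice that received either vehicle (4 samples) or oxaliplatin, a platinum drug used against cancer, at 10 mg/kg (5 samples), and were collected after 8 weeks. Every sample was whole-tissue RNA, and the sources used here do not give the vehicle's composition, the dosing schedule, or the age and sex of the mice. Nothing in the labels says that samples were separate animals, so the p-values rest on a spread that may be technical.

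In cardiomyocytes outside pacemaker tissue, each beat starts with sodium entry through voltage-gated sodium channels. These are built from a pore-forming alpha subunit and small beta subunits that tune its gating. Depolarization then opens L-type calcium channels, made of a pore subunit with a beta and an alpha2-delta subunit that bring it to the membrane, and the calcium that enters triggers contraction. The sodium-calcium exchanger removes that calcium between beats, and T-type calcium channels, which open at more negative voltages, are best known in pacemaker and atrial tissue and in the developing heart.

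Both sodium channel members and both leading L-type subunits were lower in oxaliplatin samples, whereas the exchanger differed little between the groups. Of the 8 genes, 4 fell (Scn4b, Scn4a, Cacna2d1 and Cacna1c), 0 rose and 4 did not pass the test. The test was limma on log2(normalized count + 1), called at a Benjamini-Hochberg adjusted p under 0.05 over all genes, and it called 5.03% of all tested genes lower, 9.23% higher and 14.3% in either direction. Of the 8 genes, 7 had negative log2 fold changes, and their median was -0.68, against -0.02 over all genes tested. In 5 of the 8 every oxaliplatin sample lay below every vehicle sample, a pattern found in 5.93% of all tested genes. The 8 genes, and the gene lists used below, were chosen with earlier results of these data known. Their counts beside the shares over all genes are therefore description and no test of the genes as a set. In bulk tissue, fewer cells of a type and less RNA per cell cannot be told apart.

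**Figure D1:**
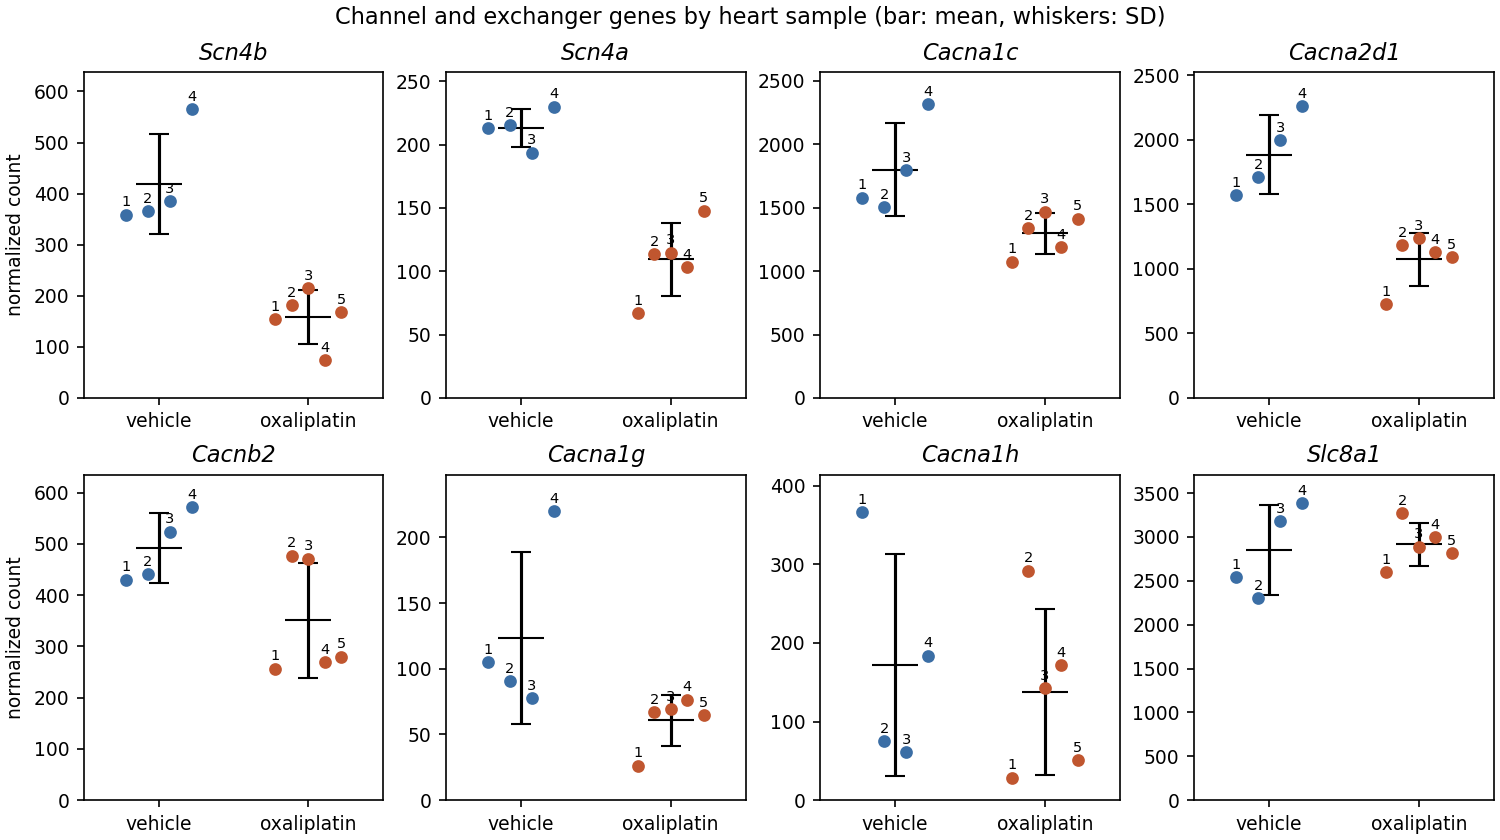
Normalized count (vertical axis, starting at 0) of each of the 8 genes in the 4 vehicle and 5 oxaliplatin samples; points carry replicate numbers, and bars and whiskers are the mean and SD. The groups do not overlap for Scn4b, Scn4a, Cacna1c, Cacna2d1 and Cacna1g, and they overlap for Cacnb2, Cacna1h and Slc8a1.

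Totals of normalized counts ran from 29.4 M to 36.9 M per sample. Cardiomyocyte markers (12 of 12 in the table) summed to between 1660880 and 2046350 normalized counts in vehicle samples and between 1365660 and 1863590 in oxaliplatin samples, with a median log2 fold change of -0.28. Erythroid markers (9 of 10) summed to between 222518 and 572561 in vehicle and between 8343 and 359990 in oxaliplatin samples, with no overlap of their scores except for oxaliplatin 3. Endothelial marker scores were higher in every oxaliplatin sample (-0.05 to 0.48) than in any vehicle sample (-0.42 to -0.27). Of 6 ventricular markers, 4 fell and 1 rose, with a median log2 fold change of -0.76. The part of the endothelial and ventricular markers in the results was not tested. Atrial markers (9 of 10) summed to between 13703 and 393474 in vehicle and between 29166 and 853728 in oxaliplatin samples. A marker score is the mean of the markers' log2 values, each centred on its mean over all samples.

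Scn4b, a covalently attached beta subunit of the sodium channel, lies on chromosome 9 from 45138395 to 45154152 (GRCm38) and had the largest fall of the 8 genes. It had 359, 365, 385 and 566 normalized counts in vehicle samples 1 to 4, and 154, 181, 215, 74.0 and 168 in oxaliplatin samples 1 to 5. The highest oxaliplatin sample therefore lay below the lowest vehicle sample, and vehicle 4 stood above the other vehicle samples. Its mean went from 419 ± 98.7 (SD, n = 4) to 158 ± 52.3 (SD, n = 5), with a log2 fold change of -1.45 (standard error, SE, 0.27, limma adjusted p = 0.00494). Only 0.457% of tested genes had a more negative log2 fold change. The fall passed with any one sample left out, at adjusted p from 0.00235 to 0.0184.

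Scn4a, the pore subunit best known as the sodium channel of skeletal muscle, lies on chromosome 11 from 106318592 to 106353288. Its vehicle samples held 213, 216, 194 and 230 normalized counts, and its oxaliplatin samples 66.9, 114, 115, 103 and 148. The vehicle samples were tightly grouped and all lay above the highest oxaliplatin sample, number 5. The mean of Scn4a went from 213 ± 14.9 (SD, n = 4) to 109 ± 29.1 (SD, n = 5), a log2 fold change of -0.998 (SE 0.21, limma adjusted p = 0.00759). Of 12 skeletal muscle markers, 4 were in the table, and these summed to between 350 and 1126 normalized counts in vehicle and between 345 and 773 in oxaliplatin samples. None of those 4 passed the test, and the skeletal myosin heavy chain genes Myh1, Myh2 and Myh4 were not in the table.

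The calls for these genes depended on how marker scores entered the model, and subtracting the cardiomyocyte score also made their falls smaller. When the erythroid score was added to the model, none of the 8 genes passed, at log2 fold changes of -1.34 for Scn4b (limma adjusted p = 0.0539), -0.89 for Scn4a (0.0848), -0.74 for Cacna2d1 (0.0663) and -0.40 for Cacna1c (0.252). The SE of Scn4b was then 0.38 in place of 0.27. With the atrial score added in the same way, all 4 genes passed. With the cardiomyocyte score subtracted from each sample, which raised the median over all genes to 0.27, Scn4b alone passed (-1.16, adjusted p = 0.00699), and Scn4a stood at -0.70 (0.0556), Cacna2d1 at -0.53 (0.0721) and Cacna1c at -0.17 (0.482).

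Another beta subunit gene moved the opposite way. Scn3b, whose protein associates with sodium channel pores without a covalent bond, had 25.1, 2.23, 5.38 and 27.2 normalized counts in vehicle samples, and 106, 30.8, 99.9, 77.2 and 155 in oxaliplatin samples. Every oxaliplatin sample exceeded every vehicle sample, although oxaliplatin 2 lay close to vehicle 4. The log2 fold change of Scn3b was 2.92 (SE 0.67, limma adjusted p = 0.0142), and without vehicle 3 its adjusted p was 0.0562. Neuron and Schwann cell markers (7 of 12 in the table) summed to between 566 and 863 normalized counts in vehicle and between 331 and 1185 in oxaliplatin samples, and 4 of the 5 that were tested had negative log2 fold changes. The remaining tested marker, Tubb3, had a positive one of 0.70 and did not pass (limma adjusted p = 0.346). Snap25 and Nefl lay below the filter on low values and were not tested. The part of neurons and Schwann cells in the rise of Scn3b was not tested.

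Over the whole list of 14 sodium channel subunit genes, 9 were tested, 2 fell (Scn4b and Scn4a), 1 rose (Scn3b) and 6 did not pass, with a median log2 fold change of -0.06. Leaving out vehicle 3 left 0 genes that rose, leaving out oxaliplatin 1 gave 3 and leaving out oxaliplatin 2 gave 2, while 2 fell in each fit that left out one sample. Among those that did not pass, Scn3a of neuronal channels went from 34.4 ± 5.62 to 68.7 ± 28.3 normalized counts (limma adjusted p = 0.0746).

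**Figure D2:**
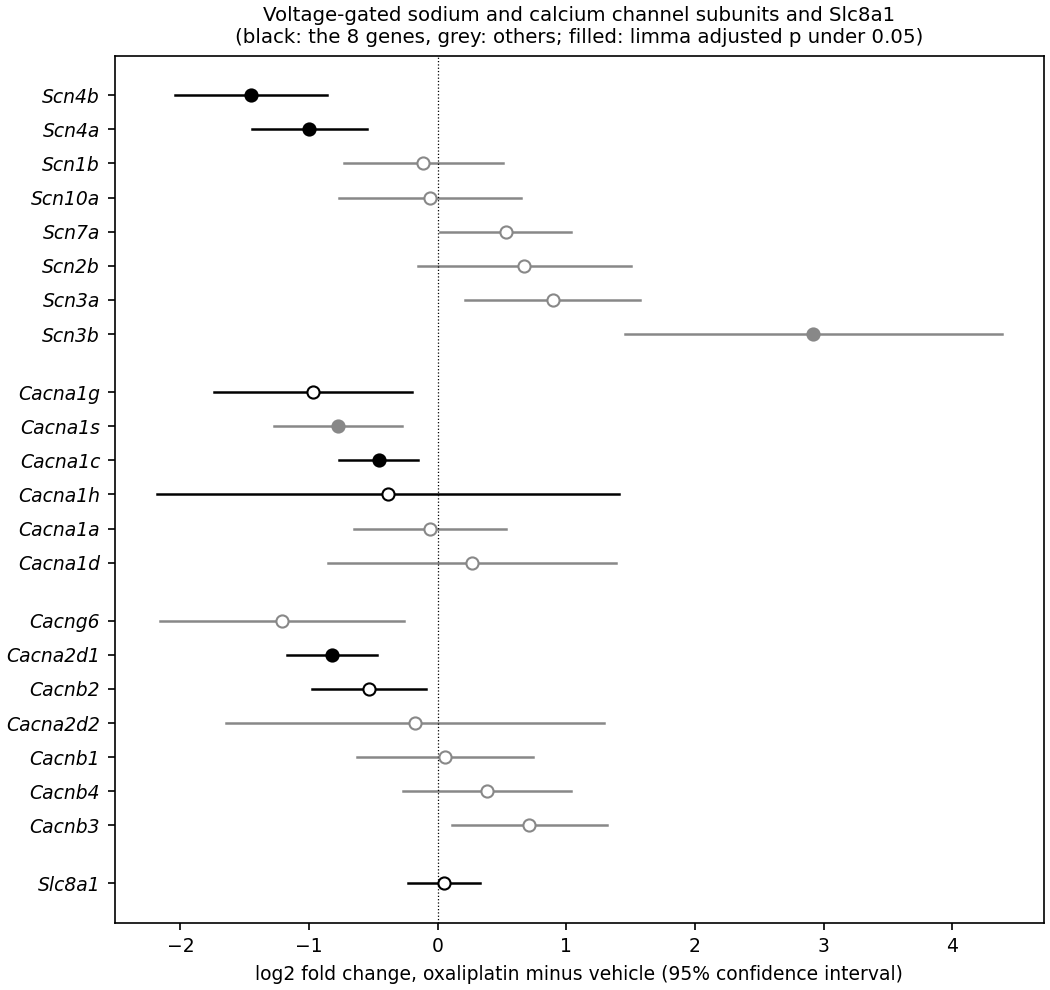
Log2 fold change of oxaliplatin against vehicle (horizontal axis) with its 95% confidence interval for 8 of the 9 tested sodium channel subunits (upper block), calcium channel pore subunits, calcium channel auxiliary subunits and Slc8a1 (bottom), with the 8 genes in black, other genes in grey, and filled points for limma adjusted p under 0.05. Scn4b at -1.45 and Scn3b at 2.92 stand at opposite ends, and Slc8a1 lies next to 0.

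Cacna1c, the pore subunit of the main cardiac L-type calcium channel, lies on chromosome 6 from 118587240 to 119196418. It had 1579, 1507, 1796 and 2316 normalized counts in vehicle samples, and 1075, 1340, 1470, 1187 and 1415 in oxaliplatin samples. The groups did not overlap, but the gap between vehicle 2 and oxaliplatin 3 was small. The mean of Cacna1c went from 1800 ± 366 (SD, n = 4) to 1298 ± 163 (SD, n = 5), a log2 fold change of -0.46 (SE 0.14, limma adjusted p = 0.0472). This call was near the threshold: it held without vehicle 2 (0.0488) or oxaliplatin 2 (0.0498), and it was lost without vehicle 1 (0.0556), vehicle 3 (0.110), vehicle 4 (0.107), oxaliplatin 1 (0.0725), oxaliplatin 3 (0.0521), oxaliplatin 4 (0.101) or oxaliplatin 5 (0.0608).

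Cacna2d1, which encodes the extracellular alpha2-delta subunit and the binding site of gabapentin, lies on chromosome 5 from 15934691 to 16374511. Its vehicle samples held 1568, 1711, 1996 and 2259 normalized counts, and its oxaliplatin samples 724, 1185, 1236, 1131 and 1088. All oxaliplatin samples lay below the lowest vehicle sample, and oxaliplatin 1 was lowest by far. The mean went from 1883 ± 307 (SD, n = 4) to 1073 ± 203 (SD, n = 5), a log2 fold change of -0.82 for Cacna2d1 (SE 0.16, limma adjusted p = 0.00589). The call held with any one sample left out, at adjusted p from 0.00402 to 0.0250, and was lost with voom (log2 fold change -0.70, adjusted p = 0.0584).

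Cacnb2, the cytoplasmic beta subunit that carries the L-type pore to the membrane, lies on chromosome 2 from 14603088 to 14987908. It had 430, 441, 524 and 572 normalized counts in vehicle samples, and 257, 477, 471, 270 and 280 in oxaliplatin samples. Oxaliplatin samples 2 and 3 sat within the vehicle range and the other oxaliplatin samples lay below it. Cacnb2 did not pass (log2 fold change -0.53, SE 0.21; limma, adjusted p = 0.103), but it did without oxaliplatin 2 (-0.66, 0.0330). It also passed once vehicle 1 and oxaliplatin 2, 3 and 4, whose atrial scores were high, were removed together (-0.92, 0.00803). That removal took out the oxaliplatin samples within the vehicle range and left oxaliplatin 1 and 5. Cacnb2 did not pass when the model included the atrial score (-0.58, limma adjusted p = 0.0597). Nor did it pass when only the samples scoring above 2 were dropped (-0.65, 0.0844).

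Subunits of the L-type channel did not change in equal measure, as ratios of normalized counts within a sample show, which no scaling of samples can move. The log2 ratio of Cacna2d1 to Cacna1c went from 0.07 ± 0.11 (SD, n = 4) to -0.29 ± 0.19 (SD, n = 5), without overlap between the groups (exact two-sided permutation test over 126 splits, p = 0.0159, the smallest this design allows; 0.0423 adjusted over the 8 ratios examined). The log2 ratio of Cacnb2 to Cacna1c was -1.86 ± 0.12 in vehicle and -1.93 ± 0.35 in oxaliplatin samples (exact permutation p = 0.698, adjusted 0.798). Transcripts of the alpha2-delta subunit were thus fewer relative to the pore in every oxaliplatin sample than in any vehicle sample. The gap was narrow, however, with oxaliplatin 4 at -0.070 and vehicle 4 at -0.036. For the beta subunit the ratios overlapped and were more spread in oxaliplatin samples.

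Slc8a1, the sodium-calcium exchanger of the cardiomyocyte membrane, lies on chromosome 17 from 81373105 to 81738377. Its vehicle samples held 2544, 2299, 3178 and 3382 normalized counts, and its oxaliplatin samples 2600, 3274, 2889, 2999 and 2817. The oxaliplatin samples all fell inside the vehicle range. The log2 fold change of Slc8a1 was 0.05 (95% confidence interval -0.23 to 0.33; limma adjusted p = 0.849). The log2 ratio of Slc8a1 to Cacna1c rose from 0.67 ± 0.12 (SD, n = 4) to 1.17 ± 0.17 (SD, n = 5), and the highest vehicle ratio (0.82) lay below the lowest oxaliplatin ratio (0.97; exact permutation p = 0.0159, adjusted 0.0423). With any 1 sample left out, the smallest possible p was 0.0286 or 0.0357, and none of the 8 ratios passed after adjustment (lowest adjusted p 0.0571). The groups nonetheless differed by 0.47 to 0.56 for Slc8a1 to Cacna1c and by -0.42 to -0.29 for Cacna2d1 to Cacna1c.

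**Figure D3:**
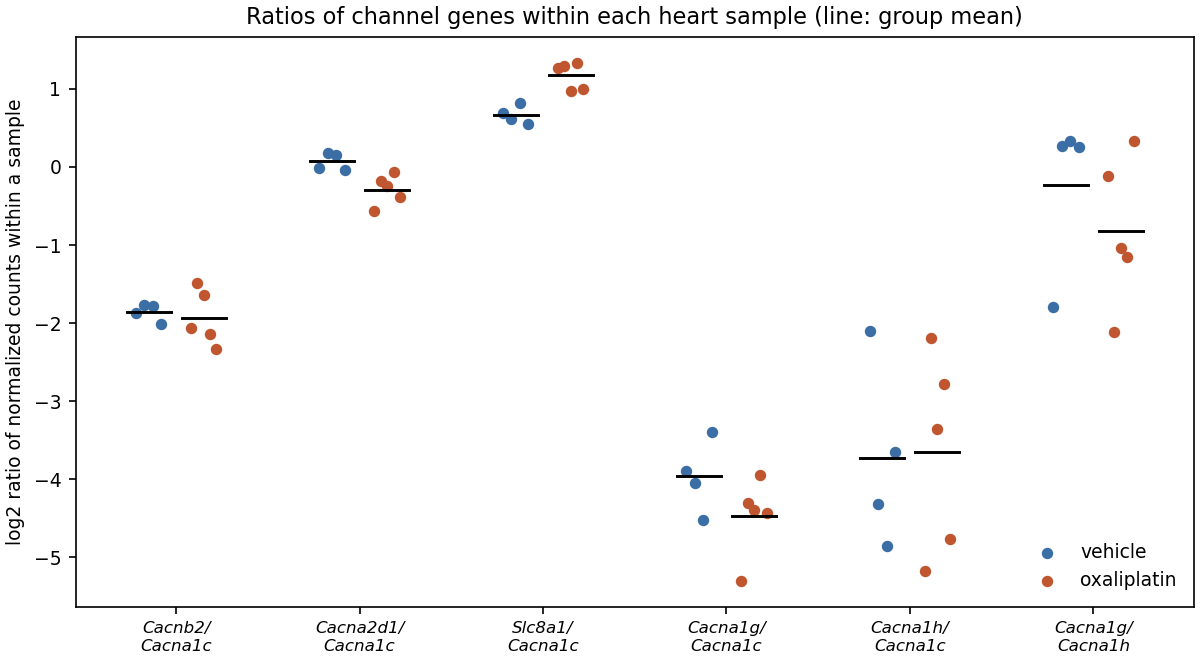
Log2 ratio of normalized counts of 2 genes within a sample (vertical axis) for 6 of the 8 ratios examined, with a point for each of the 4 vehicle and 5 oxaliplatin samples and a line at each group mean. The groups separate for Slc8a1 to Cacna1c and, by a narrow gap, for Cacna2d1 to Cacna1c, and they overlap for the other ratios.

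The T-type pore subunits differed from each other in how they varied. Cacna1g, on chromosome 11 from 94408391 to 94474198, had 105, 90.5, 77.4 and 220 normalized counts in vehicle samples, and 26.3, 66.9, 69.2, 76.4 and 64.6 in oxaliplatin samples. Its groups did not overlap, with oxaliplatin 4 just under vehicle 3, and vehicle 4 was far above the rest. Cacna1g did not pass (log2 change -0.97, SE 0.36, by limma an adjusted p = 0.0873), but it did after quantile normalization (-1.04, 0.0365), which brought the genes that fell to 5 of the 8.

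Cacna1h, on chromosome 17 from 25374285 to 25433783, had 366, 74.8, 61.3 and 184 normalized counts in vehicle samples, and 28.7, 292, 143, 172 and 51.1 in oxaliplatin samples. Both groups spanned low and high samples, and the gene did not pass (log2 fold change -0.39, SE 0.79; limma, adjusted p = 0.789). Its interval, from -2.18 to 1.41, was the widest of the 8 genes. The highest values of Cacna1h, in vehicle 1 and oxaliplatin 2, came with atrial marker scores of 2.38 and 3.13, and the lowest, in oxaliplatin 1, came with a score of -3.62. The other samples ranged in score from -2.19 (vehicle 3) to 2.71 (oxaliplatin 4). Vehicle 4, at a score of -0.67, had 184 normalized counts of Cacna1h, above the 172 of oxaliplatin 4. With the atrial score as a covariate, Cacna1h had a log2 fold change of -0.79 (limma adjusted p = 0.0266) and Cacna1g one of -1.09 (0.0263), so that both passed, as did Scn4b, Scn4a, Cacna1c and Cacna2d1. With 4 samples of high atrial score left out (vehicle 1 and oxaliplatin 2, 3 and 4), Cacna1h had one of -1.28 (0.0921) and Cacna1g one of -1.46 (0.0673). That fit kept only oxaliplatin 1 and 5 of the oxaliplatin samples, and oxaliplatin 1 had the lowest value of both genes. The ratio of Cacna1g to Cacna1h overlapped between the groups (log2 difference -0.59, exact permutation p = 0.460, adjusted 0.614).

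**Figure D4:**
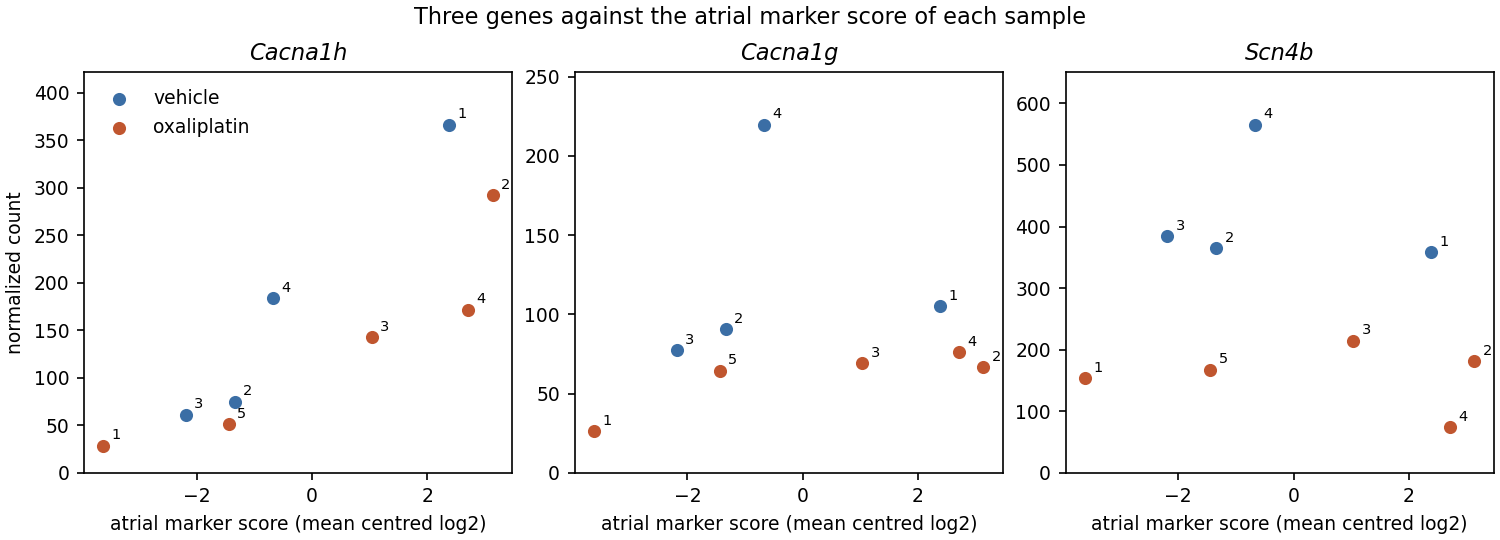
Normalized count (vertical axes, starting at 0) of Cacna1h, Cacna1g and Scn4b against the atrial marker score of the sample (horizontal axis), with replicate numbers beside the points. Cacna1h is highest in vehicle 1 and oxaliplatin 2, at scores of 2.38 and 3.13. Scn4b is lower in all oxaliplatin samples than in any vehicle sample. Scores run from -2.19 to 2.38 in vehicle samples and from -3.62 to 3.13 in oxaliplatin samples.

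Of the 10 calcium channel pore genes listed, 6 were tested, 2 fell, 0 rose and 4 did not pass, with a median log2 fold change of -0.42. Beside Cacna1c, the gene that fell was Cacna1s, the pore of the skeletal muscle channel, from 331 ± 57.2 (SD, n = 4) to 201 ± 80.1 normalized counts (SD, n = 5; log2 fold change -0.77, limma adjusted p = 0.0414). Oxaliplatin 1, at 339, lay inside the vehicle range of 269 to 395, and an antisense gene shares 19.98% of the exonic bases of Cacna1s, so its reads are uncertain. Cacna1s passed without vehicle 4 (0.0484) or oxaliplatin 1 (0.00369) and with no other single sample left out, where adjusted p reached 0.120. The pore genes that fell numbered 1 without vehicle 2, vehicle 4, oxaliplatin 1 or oxaliplatin 2, and 0 without vehicle 1, vehicle 3, oxaliplatin 3, oxaliplatin 4 or oxaliplatin 5. Of 16 auxiliary subunit genes 7 were tested, Cacna2d1 fell, 0 rose and 6 did not pass (median -0.18). The number that fell was 2 without oxaliplatin 2 and 2 without oxaliplatin 5. Cacng6, a gamma subunit gene, went from 48.8 ± 17.2 to 21.8 ± 12.3 normalized counts without passing (limma adjusted p = 0.0837), but passed without oxaliplatin 5 (0.0442).

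None of 8 tested exchanger and calcium pump genes passed in limma, and 1 had an unadjusted p under 0.05. That was Atp2b4, a plasma membrane calcium pump, at 265 ± 70.7 and 355 ± 41.8 normalized counts (log2 fold change 0.45, limma adjusted p = 0.117). Slc8b1, the exchanger of the inner mitochondrial membrane, had a log2 fold change of 0.14 (0.527).

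Of 20 tested partners of the calcium channel, 4 fell, 2 rose and 14 did not pass (median -0.20), beside 5.03% of all tested genes that fell and 9.23% that rose. Akap5, an anchor that holds protein kinase A at the channel, had 166, 122, 154 and 87.7 normalized counts in vehicle samples, and 41.8, 62.5, 28.9, 30.9 and 31.4 in oxaliplatin samples. All oxaliplatin values of Akap5 lay below the vehicle range (log2 change -1.75, SE 0.28, by limma an adjusted p = 0.00211), and the call held with any one sample left out. The beta-adrenergic receptor gene Adrb1 fell by 1.17, the catalytic kinase subunit Prkaca by 0.39 and Rrad, a small GTPase that restrains L-type current, by 0.60, whereas Prkar1a, a regulatory kinase subunit, rose by 0.55 and the calcium-binding protein gene Sri rose by 0.57. These 5 calls were less firm. With 1 sample left out at a time, 1 to 5 of these partners fell and 0 to 2 rose. Adrb1 passed without oxaliplatin 2, 3 or 5 (highest adjusted p 0.0886), Prkaca without vehicle 1, oxaliplatin 1, 2 or 5 (0.0973), Rrad without vehicle 4, oxaliplatin 1, 2 or 5 (0.112), and Prkar1a (0.111) and Sri (0.0993) without oxaliplatin 2 or 3.

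Of 17 tested partners of the sodium channel, 1 fell, 1 rose and 15 did not pass (median -0.07), shares near those of all tested genes. With 1 sample left out at a time, 0 to 3 fell and 1 to 2 rose. Calm2, a calmodulin gene, had 5178, 4850, 4873 and 4019 normalized counts in vehicle samples, and 8558, 6294, 7102, 7517 and 7816 in oxaliplatin samples, without overlap (log2 fold change 0.66, SE 0.12; limma, adjusted p = 0.00435). Pkp2, a desmosome protein of the intercalated disc, fell by 0.65 (0.0268) and passed without vehicle 1, oxaliplatin 1, 2 or 5 (highest adjusted p 0.0770). The 67 tested genes of all the channel lists together held 10 that fell, 4 that rose and 53 that did not pass, with a median log2 fold change of -0.11, where 5.03% of all tested genes fell and 9.23% rose. These counts moved with the model, to 2 that fell and 11 that rose with the cardiomyocyte score subtracted, 4 and 5 with voom, 1 and 2 with the erythroid covariate, and 14 and 10 with array weights.

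Levels of the 8 genes were compared per kilobase of annotated exon, over all transcripts of each gene. In vehicle samples Cacna2d1 (152 ± 24.7 normalized counts per kb, SD, n = 4) and Slc8a1 (152 ± 27.3) were highest and did not differ beyond their spread. Cacna1c (84.9 ± 17.3) and Scn4b (84.0 ± 19.8) followed, below the lowest value of Slc8a1 (122 per kb) and overlapping each other. Cacnb2 (37.2 ± 5.12) and Scn4a (30.2 ± 2.12) came next with ranges that touched, and Cacna1h (17.6 ± 14.4) and Cacna1g (12.2 ± 6.45) were lowest on average and overlapped, vehicle 1 reaching 37.5 per kb for Cacna1h. In oxaliplatin samples the level of Slc8a1 was 155 ± 13.2 per kb (SD, n = 5) and no longer overlapped that of Cacna2d1 (86.4 ± 16.3). Scn4b, at 31.8 ± 10.5 per kb, then lay below all values of Cacna1c (61.2 ± 7.71) and overlapped Cacnb2 (26.5 ± 8.52).

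RefSeq promoter windows (GRCm38.p6) were matched for 6 of the 8 genes, in 9 windows of 250 bases before an annotated start. Shown here is a window of each of Cacna2d1 and Cacna1c, which fell, and of Slc8a1, which did not pass. Other windows of Cacna1c, including a window with 0 bases in its own exons, are not shown. The windows shown lie outside the genes' own exons but for 9 bases of Cacna1c. They are written 5′ to 3′ on the gene's strand, at chr5:15934441-15934690 (+), chr6:119196410-119196659 (-) and chr17:81738388-81738637 (-), and capitals mark a match to the p53 half-site.
Cacna2d1: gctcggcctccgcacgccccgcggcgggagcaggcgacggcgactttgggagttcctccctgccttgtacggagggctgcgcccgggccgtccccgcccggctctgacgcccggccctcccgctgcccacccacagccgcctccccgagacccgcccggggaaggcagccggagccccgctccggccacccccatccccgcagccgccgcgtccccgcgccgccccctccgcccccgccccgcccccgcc
Cacna1c: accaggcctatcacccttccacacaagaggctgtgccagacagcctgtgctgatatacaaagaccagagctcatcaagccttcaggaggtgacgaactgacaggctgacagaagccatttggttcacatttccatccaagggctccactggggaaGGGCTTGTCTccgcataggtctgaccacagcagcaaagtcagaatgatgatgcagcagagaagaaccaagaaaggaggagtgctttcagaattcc
Slc8a1: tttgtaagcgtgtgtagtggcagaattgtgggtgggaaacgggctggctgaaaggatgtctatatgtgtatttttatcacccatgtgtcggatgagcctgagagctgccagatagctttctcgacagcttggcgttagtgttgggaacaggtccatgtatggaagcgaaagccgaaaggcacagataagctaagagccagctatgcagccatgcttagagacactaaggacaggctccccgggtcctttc

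The Cacna2d1 window held 82.4% G and C and 36 CpG dinucleotides, that of Cacna1c 51.6% and 2, and that of Slc8a1 50.4% and 8, against medians of 52.4% and 6 over 32851 promoters. Scn4b, with 66.0% and 23, had a window of which 229 bases lay in its own annotated exons. Other windows of Cacna1c held 82.8% and 48, and 50.4% and 5. Windows of genes that fell were thus both CpG-rich and CpG-poor, also within Cacna1c. On both strands, a p53 half-site matched in 1 of the 9 windows (7.13% of all promoters), 95 bases before the Cacna1c start, and an E-box, CANNTG, matched in 6 of 9 (66.2%). The TATA box TATAAA (12.4% of all promoters), the MCAT element CATTCC (12.6%), the AP-1 site TGANTCA (6.75%), the MEF2 site (2.92%) and the CArG box (1.47%) matched in 0 of the 9. A match describes letters in the window and says nothing of binding.

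For each of the 4 genes that fell, the 3 genes of most similar profile were taken by Pearson's r of log2 values over the 9 samples, among 10042 genes with a mean of 100 or more. Samples of both groups enter r together, so a difference between the groups is part of it. Scn4b was most like Tusc2 (r = 0.976), the mitochondrial ornithine carrier gene Slc25a15 (0.974) and Gfra1, a receptor for glial-derived neurotrophic factor (0.972). Scn4a was most like Kcnj2, the main inward rectifier potassium channel of ventricular muscle (0.953), the ephrin gene Efnb3 (0.948) and Dcaf6 (0.946). Cacna2d1 was most like Ubr3 (0.979), Slc49a4 (0.978) and Marchf6 (0.977), of which Ubr3 and Marchf6 are ubiquitin ligase genes. Cacna1c was most like Lrsam1 (0.980), the kinase gene Wnk1 (0.969) and Rabl6 (0.968). Efnb3, at a log2 fold change of -1.48 (limma adjusted p = 8.83e-04), had the largest fall among these 12 genes, and Lrsam1 (-0.21, 0.255) and Rabl6 (-0.46, 0.0689) did not pass.

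**Figure D5:**
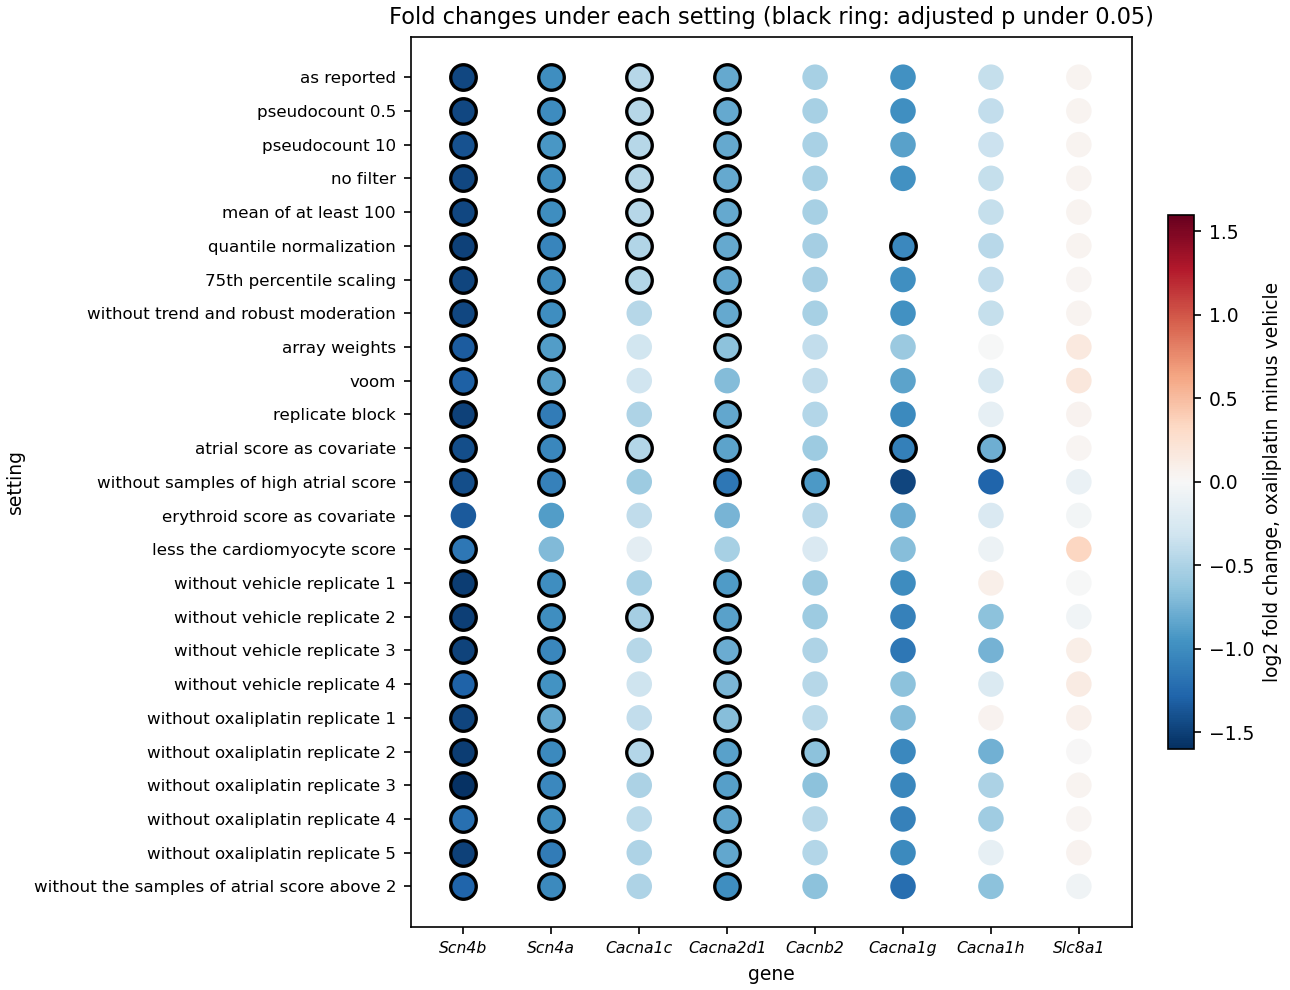
Log2 fold change of the 8 genes (columns, colour scale) in the fit as reported and under each alternative setting (rows), with a black ring where the limma adjusted p is under 0.05. Scn4b and Scn4a keep the ring in nearly every row, Cacna1c loses it in most, and no row has a ring for Slc8a1.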

How the data were processed

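RNA sequencing of mouse heart (4 vehicle and 5 oxaliplatin samples) was analysed from a table of signal per gene, which the authors deposited as normalized counts, per the file headers. STAR 2.5.1a, Partek and DESeq2 are named in the submitters' processing notes without role or order; no genome build, annotation or strandedness is given in those notes or the labels. Per the labels' protocols, a SMARTer kit was used for library preparation. Values are not whole reads, so limma 3.58.1 (R 4.3.3) with trend and robust moderation was applied to the 13788 genes whose mean reached 10, as log2(normalized count + 1). Fold changes on this scale understate changes of low genes. Ratios of genes within a sample were compared with exact permutation tests (numpy 2.4.6, scipy 1.17.1). The fit was tested on simulated data. Without strand information, reads shared with overlapping or antisense genes cannot be assigned. Gene positions and exonic lengths were taken by symbol from GENCODE M21 (GRCm38). The 8 genes and the lists were chosen with earlier results of these data known. Named were the 8 genes, list genes that passed (or the 2 of smallest p), and the 3 most similar genes of each gene that fell. Alternatives were other pseudocounts, filters, scalings, limma settings, marker scores, the replicate number as a block, and leaving out samples. Leaving out vehicle 1, oxaliplatin 2 and oxaliplatin 4 together was added after seeing the data. Some genes and ratios counted in the totals are not reported here.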

Additional observations from a re-analysis of the deposited data

Results flagged for a closer look

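Dixon's test for a single distant sample was applied to both groups of the 8 genes and 8 ratios, 32 groups in all, of which chance flags about 1 in 20. Scn4b was distant in vehicle 4 (566 normalized counts, next 385; gap over range 0.872). Cacna2d1 was distant in oxaliplatin 1 (724, next 1088; 0.710), as was Cacna1g (26.3, next 64.6; 0.764). The log2 ratio of Cacna1g to Cacna1h was distant in vehicle 1 (-1.79, next 0.26; 0.966), a sample whose atrial marker score was 2.38.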

How the results depend on the processing

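Over 24 alternative settings, Scn4b kept its call in 23, Scn4a in 22, Cacna2d1 in 21 and Cacna1c in 9. The number of the 8 genes that fell was 5 after quantile normalization, 2 with voom, 0 with the erythroid score as a covariate and 1 with the cardiomyocyte score subtracted, and 3 to 5 with each sample left out. Genes changed over the whole table numbered 1966, and 3541 with array weights, 1048 with the erythroid covariate, 3118 with the cardiomyocyte score subtracted and 1110 to 2388 with each sample left out (1237 without vehicle 2, 1110 without vehicle 3, 1301 without oxaliplatin 4). Genes that rose made up 64.7% of those changed, 54.4% after quantile normalization, 84.5% with voom (which moved the median of all genes to 0.11), 55.8% with array weights, 76.2% with the erythroid covariate and 95.4% with the cardiomyocyte score subtracted. Slc8a1, near 0, changed sign without samples of high atrial score (-0.11), without the 3 samples of atrial score above 2 (-0.075), with the erythroid covariate (-0.049) and among fits with a sample left out (-0.051 to 0.13), and Cacna1h did in the latter (-0.77 to 0.10). The difference in log2 ratio of Cacna1h to Cacna1c, 0.07, changed sign without samples of high atrial score (-0.70), without the 3 samples (-0.16) and with a sample left out (-0.30 to 0.62). That of Cacnb2 to Cacna1c turned only without oxaliplatin 5 (-0.18 to 0.028 over fits with a sample left out). Of the 8 ratios 3 passed, and 0 did with any sample left out (0 to 0) or with the samples of high atrial score left out, where the smallest p was 0.20. The replicate numbers did not pair the samples (correlations of same-numbered samples' deviations -0.27, -0.06, -0.09 and 0.25); with the replicate block, which drops oxaliplatin 5, 1413 genes changed and 3 of the 8 fell. The cause of these differences was not tested. Sequencing depth is not known here, since the totals are of normalized counts. Low genes such as Scn3b rest on few normalized counts.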

Other observations

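Other channel genes, chosen here after their values were seen, had wide spreads in both groups. Fgf12, an intracellular sodium channel modulator, had 659, 57.0, 19.4 and 65.6 normalized counts in vehicle samples, and 3.58, 2117, 267, 1246 and 35.9 in oxaliplatin samples. Its highest values lay in oxaliplatin 2, oxaliplatin 4 and vehicle 1, the samples with atrial marker scores of 3.13, 2.71 and 2.38. Cacna1d, an L-type pore of pacemaker and atrial cells, was also highest in oxaliplatin 2 (120 normalized counts) and vehicle 1 (74.2), and Cacna2d2 in vehicle 1 (100.4) and oxaliplatin 2 (94.7). Vehicle 4, at an atrial score of -0.67, had 68.5 for Cacna1d and 61.5 for Cacna2d2, above the 48.0 and 31.7 of oxaliplatin 4, at a score of 2.71. None of these 3 genes passed (limma adjusted p = 0.802, 0.775 and 0.893).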
